A study of Mus musculus with 6 samples.

Results

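The MAP kinase feedback phosphatases and the Sprouty and Spred inhibitors were followed here through RNA bound to phosphorylated ribosomes in warm-exposed mice. The set was named by gene symbol, with earlier results of these data known. It holds 10 genes, the dual-specificity phosphatases Dusp1, Dusp3, Dusp4, Dusp5, Dusp6 and Dusp14 and the inhibitors Spry2, Spry4, Spred1 and Spred2. Of these, 9 were among the 13724 entries of the table, and Dusp5, a nuclear phosphatase of ERK, was not listed. The table lists no gene at or below 0.1 RPKM in any library, and its lowest value is 0.101 RPKM. RPKM is a read count scaled by gene length and by the reads of the library.

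The immunoprecipitate (IP) group was 3 libraries of RNA pulled down by way of ribosomes whose S6 protein was phosphorylated (PhosphoTRAP), a mark that follows neuronal firing. The Input group was 3 libraries of total RNA. Both came from wild type C57Bl6/J mice put through warm challenges numbered 1 to 3, with 1 IP and 1 Input library per challenge. The tissue was the dissected anterior hypothalamus, which the labels call preoptic neurons, and the age, the sex and any pooling of animals were not stated in the sources used here. All 6 libraries were from warmed animals, so no difference below can be tied to warmth.

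MAP kinase cascades carry signals from growth factor receptors and calcium entry through Ras, Raf and MEK to ERK, and parallel arms lead to JNK and p38. Dual-specificity phosphatases end the signal by removing phosphate from both the threonine and the tyrosine of the activation loop. Several of their genes are themselves switched on by ERK or by cAMP signalling, as are those of Sprouty proteins, so that they form a negative feedback loop in firing neurons.

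Promoter sequence is shown for the called genes with an entry in the promoter table (Dusp1, Dusp14 and Spry2), to set their letters side by side. Spred2, which was not called, is added because its window held a half-site, and was thus chosen after its letters were seen. The windows of Dusp3, Dusp6 and Spred1 held no half-site and are not printed. That of Dusp5, a gene not listed with RPKM values, held 1 half-site and is not printed either. The sequences are the 250 bases before the transcript start, from RefSeq on build GRCm38.p6, 5′ to 3′ on the strand of the gene. Capitals mark the cAMP response element (CRE) half-site TGACG or its reverse complement CGTCA. They lie at chr17:26508473-26508722 (minus strand) for Dusp1, chr11:19924192-19924441 (plus strand) for Spred2, chr11:84068358-84068607 (minus strand) for Dusp14 and chr14:105896820-105897069 (minus strand) for Spry2.
Dusp1: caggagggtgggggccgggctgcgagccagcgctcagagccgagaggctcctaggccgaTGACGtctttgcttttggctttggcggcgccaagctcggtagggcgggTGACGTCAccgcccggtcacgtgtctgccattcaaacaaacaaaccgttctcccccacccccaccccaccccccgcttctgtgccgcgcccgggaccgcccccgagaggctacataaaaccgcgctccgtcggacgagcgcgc
Spred2: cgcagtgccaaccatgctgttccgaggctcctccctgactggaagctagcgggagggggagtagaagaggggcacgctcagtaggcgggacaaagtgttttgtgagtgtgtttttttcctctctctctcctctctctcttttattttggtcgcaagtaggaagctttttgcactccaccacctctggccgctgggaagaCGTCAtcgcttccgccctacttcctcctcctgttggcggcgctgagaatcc
Dusp14: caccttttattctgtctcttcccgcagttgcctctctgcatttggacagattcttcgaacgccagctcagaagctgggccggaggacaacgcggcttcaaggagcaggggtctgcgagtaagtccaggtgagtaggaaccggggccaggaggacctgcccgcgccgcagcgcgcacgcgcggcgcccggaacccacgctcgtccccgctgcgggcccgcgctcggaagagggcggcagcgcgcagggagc
Spry2: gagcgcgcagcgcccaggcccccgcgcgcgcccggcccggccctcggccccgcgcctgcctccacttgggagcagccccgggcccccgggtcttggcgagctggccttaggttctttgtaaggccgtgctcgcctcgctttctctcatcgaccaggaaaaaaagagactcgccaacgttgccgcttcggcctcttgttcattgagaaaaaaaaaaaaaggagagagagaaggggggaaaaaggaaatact

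The Dusp1 window held the full CRE, TGACGTCA, a palindrome that reads as a half-site on each strand. It began 143 bases before the start, and a further half-site began 191 bases before it. Spred2 held 1 half-site, 51 bases before the start. Among the 8 members with an entry, 3 held a half-site (Dusp1, Spred2 and Dusp5) and 1 the full CRE, against 26.3% and 2.66% of 11078 promoters of the genes tested. The CArG box of the serum response element, searched on both strands, was in the Dusp5 window alone among these 8, against 1.14% of the same promoters. Dusp5 was not listed and so not tested, and its promoter is among the 8 but not among the 11078. The windows of Dusp14 and Spry2, both higher in IP, held none of these letters. A match is a run of letters and no evidence of binding.

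Among the 9 genes listed, 4 rose in IP at an adjusted p under 0.05 (Dusp14, Dusp4, Spry2 and Dusp1), 0 fell and 5 did not pass. Across all 12328 genes tested, 0.892% were higher and 3.29% lower by the same rule (limma, Benjamini-Hochberg). These were 110 genes higher and 406 lower, against 126 and 125 after median scaling. At an unadjusted p under 0.05, 7 of the 9 were higher and 0 lower, against 5.03% of all genes higher. The log2 fold was positive in all 9, against 34.8% of all genes. Its median was 1.09 in the set and -0.18 over all genes. All 3 IP libraries lay above all 3 Input libraries for 5 of the 9 (Dusp1, Dusp4, Dusp6, Dusp14 and Spry2), against 6.85% of all genes. The set was chosen with earlier results of these data known, so these shares describe it and do not test it. All 9 passed the filter of at least 1 RPKM in 3 libraries, and their lowest value in any library was 3.03 RPKM. In dissected tissue, more RNA of a gene per cell and more recovered cells that express it cannot be told apart.

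**Figure D1:**
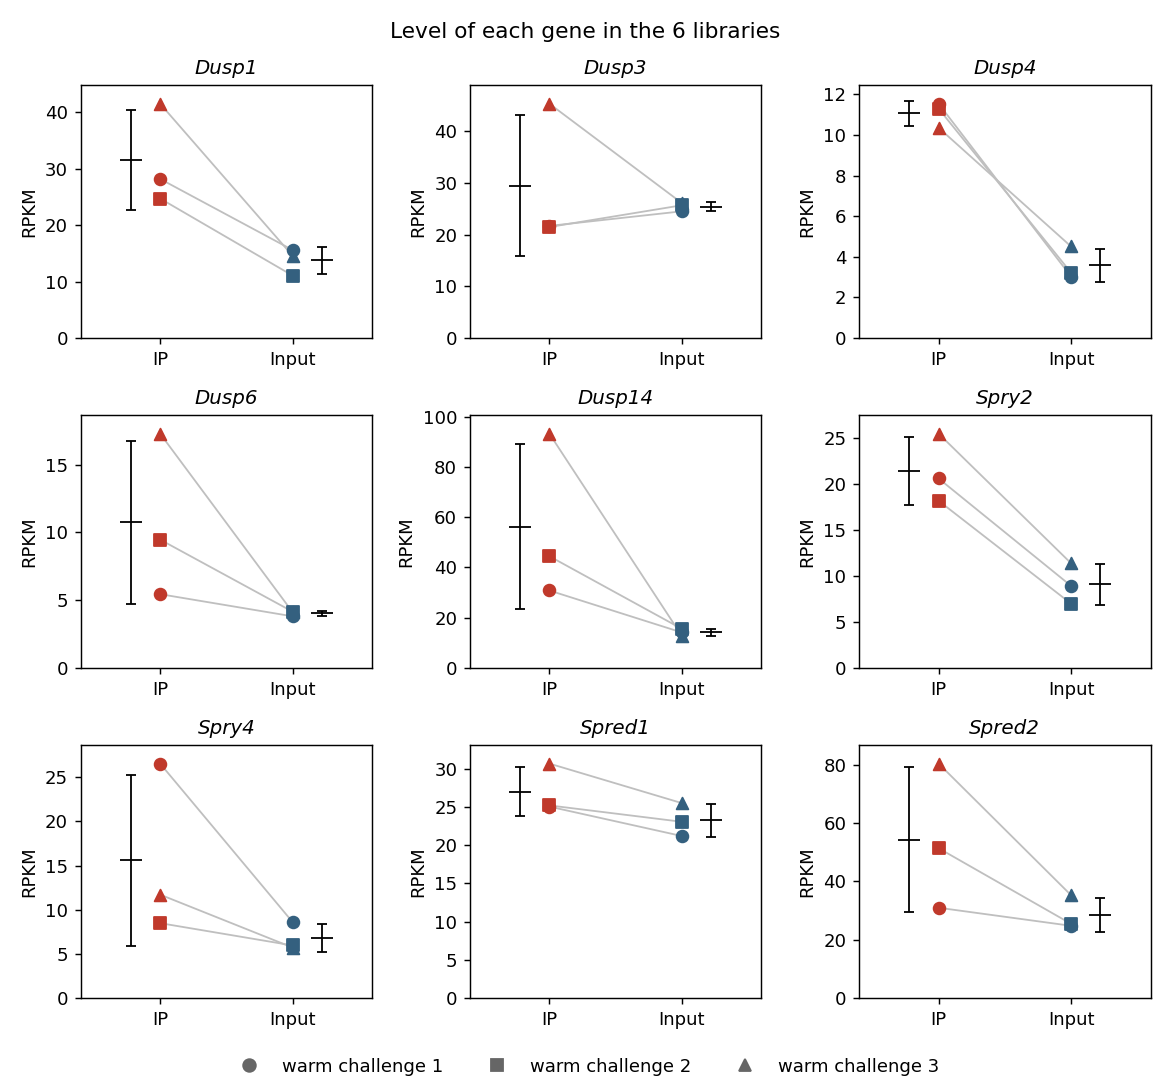
RPKM of each of the 9 listed genes (vertical axis, linear, from 0) in the IP libraries and in the Input libraries, with the marker shape giving the warm challenge, grey lines joining libraries of 1 challenge and black bars giving the mean ± SD (n = 3). All IP values of Dusp1, Dusp4, Dusp6, Dusp14 and Spry2 lie above all Input values. The IP values of Dusp6, Dusp14 and Spred2 spread widely, with warm challenge 3 highest.

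Dusp1 encodes MKP-1, a nuclear phosphatase of p38, JNK and ERK and an immediate early gene. It stood at 28.2, 24.7 and 41.5 RPKM in IP 1, 2 and 3, against 15.6, 11.1 and 14.6 RPKM in Input 1, 2 and 3. The groups did not overlap, and IP 3 was the highest library. The mean was 31.5 ± 8.86 RPKM in IP and 13.8 ± 2.37 RPKM in Input (SD, n = 3 each). On the log2(RPKM + 1) scale used for every fold here the difference was 1.12 (SE 0.25, adjusted p = 0.0446 by limma), with a 95% interval of 0.55 to 1.69. The added 1 makes folds of weakly expressed genes appear smaller.

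Dusp4 encodes MKP-2, a nuclear phosphatase of ERK and JNK. It stood at 11.5, 11.3 and 10.4 RPKM in IP 1, 2 and 3, against 3.03, 3.22 and 4.51 RPKM in Input 1, 2 and 3. The groups were far apart, and the IP libraries lay within 1.11-fold of each other. Their coefficient of variation was 5.65%, against a median of 28.4% over all genes tested. The log2 fold was 1.41 (SE 0.22, interval 0.92 to 1.90, adjusted p = 0.0175 by limma), the smallest p in the set.

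Dusp6 encodes MKP-3, a cytoplasmic phosphatase selective for ERK. It stood at 5.45, 9.48 and 17.3 RPKM in IP 1, 2 and 3, against 3.82, 4.16 and 4.13 RPKM in Input 1, 2 and 3. Every IP library lay above every Input library, but the IP values spread 3.17-fold while the Input values spread 1.09-fold. Its log2 fold of 1.09 (SE 0.34, interval 0.32 to 1.87) did not pass (adjusted p = 0.0980 by limma). In RefSeq (GRCm38) the Dusp6 gene overlaps the noncoding gene Gm34921, which is not listed in the table, and no other member overlaps a gene.

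Dusp14 and Dusp3 are small atypical phosphatases that lack the kinase-docking domain of the classical MAP kinase phosphatases. Dusp14 stood at 30.8, 44.5 and 93.2 RPKM in IP 1, 2 and 3, against 14.1, 15.6 and 12.8 RPKM in Input 1, 2 and 3. The groups did not overlap, and IP 3 was 3.02 times IP 1. Its log2 fold of 1.77 (SE 0.36, interval 0.96 to 2.57, adjusted p = 0.0341 by limma) was the largest of the 9, at the 99.7 percentile of all genes tested. Dusp3, known as VHR and a phosphatase of ERK and JNK, stood at 21.7, 21.5 and 45.4 RPKM in IP 1, 2 and 3, against 24.5, 25.7 and 26.1 RPKM in Input 1, 2 and 3. Here IP 3 was far above and the other IP libraries were below every Input library. The log2 fold was 0.12 (interval -0.54 to 0.78, adjusted p = 0.847 by limma), and without IP 3 it was -0.23 (adjusted p = 0.608). Of the 2 atypical members, Dusp14 thus passed and Dusp3 did not, though the difference between their folds was not tested.

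Spry2 and Spry4 encode Sprouty proteins, which block the path from receptor tyrosine kinases to Ras and ERK. Spry2 stood at 20.6, 18.2 and 25.5 RPKM in IP 1, 2 and 3, against 8.93, 6.99 and 11.4 RPKM in Input 1, 2 and 3. The groups did not overlap, and the IP to Input difference was of like size in each challenge (1.12, 1.26 and 1.10 on the log2 scale in challenges 1, 2 and 3). The log2 fold was 1.16 (SE 0.24, interval 0.62 to 1.70, adjusted p = 0.0366 by limma). Spry4 stood at 26.6, 8.48 and 11.7 RPKM in IP 1, 2 and 3, against 8.61, 5.95 and 5.72 RPKM in Input 1, 2 and 3. IP 1 was far above the other libraries, and IP 2 lay just below Input 1. The log2 fold of 0.96 (interval 0.13 to 1.80) did not pass (adjusted p = 0.153 by limma), and without IP 1 it was 0.52 (adjusted p = 0.190).

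Spred1 and Spred2 encode Sprouty-related proteins, and Spred1 is known to bring neurofibromin, which switches Ras off, to the membrane. Spred2 stood at 30.9, 51.3 and 80.4 RPKM in IP 1, 2 and 3, against 24.7, 25.4 and 35.3 RPKM in Input 1, 2 and 3. IP 1 lay below Input 3, and the other IP libraries were above all Input libraries. The log2 fold of 0.82 (SE 0.34, interval 0.07 to 1.57) did not pass (adjusted p = 0.173 by limma). Spred1 stood at 25.1, 25.2 and 30.7 RPKM in IP 1, 2 and 3, against 21.2, 23.1 and 25.5 RPKM in Input 1, 2 and 3. Its values were close in all 6 libraries, with a log2 fold of 0.20 (interval -0.26 to 0.67, adjusted p = 0.587 by limma). That interval holds no rise above 0.67, and it does not show that the levels were equal.

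**Figure D2:**
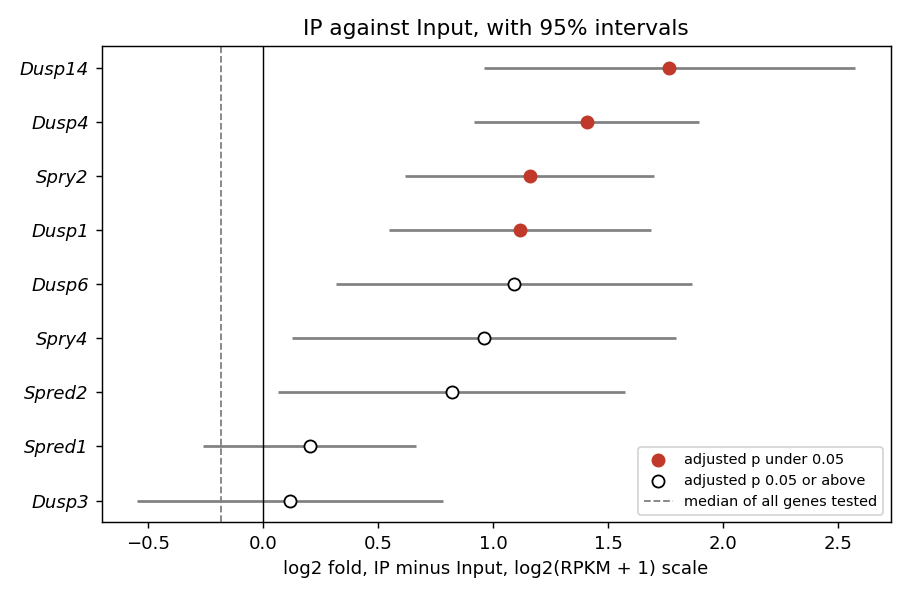
Log2 fold of IP minus Input on the log2(RPKM + 1) scale for the 9 listed genes (points) with 95% intervals from limma (lines), filled where the adjusted p was under 0.05, and a dashed line at the median of all genes tested (-0.18). Dusp14, Dusp4, Spry2 and Dusp1 are filled, and the intervals of Spred1 and Dusp3 span 0.

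Within single warm challenges, 8 of the 9 genes were higher in IP in all 3, against 14% of all genes tested. The exception was Dusp3, which was higher in challenge 3 (0.77 on the log2 scale) and lower in challenges 1 (-0.17) and 2 (-0.25). The median difference over the 9 genes was 0.81, 1.02 and 1.10 in challenges 1, 2 and 3, while that over all genes was -0.22, -0.17 and -0.17. The genes did not share an order of the challenges. Dusp14 had 1.07, 1.45 and 2.77 and Dusp6 had 0.42, 1.02 and 1.83 in challenges 1, 2 and 3, both highest in challenge 3. Spry4 had 1.52, 0.45 and 0.92 and Dusp4 had 1.64, 1.54 and 1.04 in the same challenges, both highest in challenge 1.

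**Figure D3:**
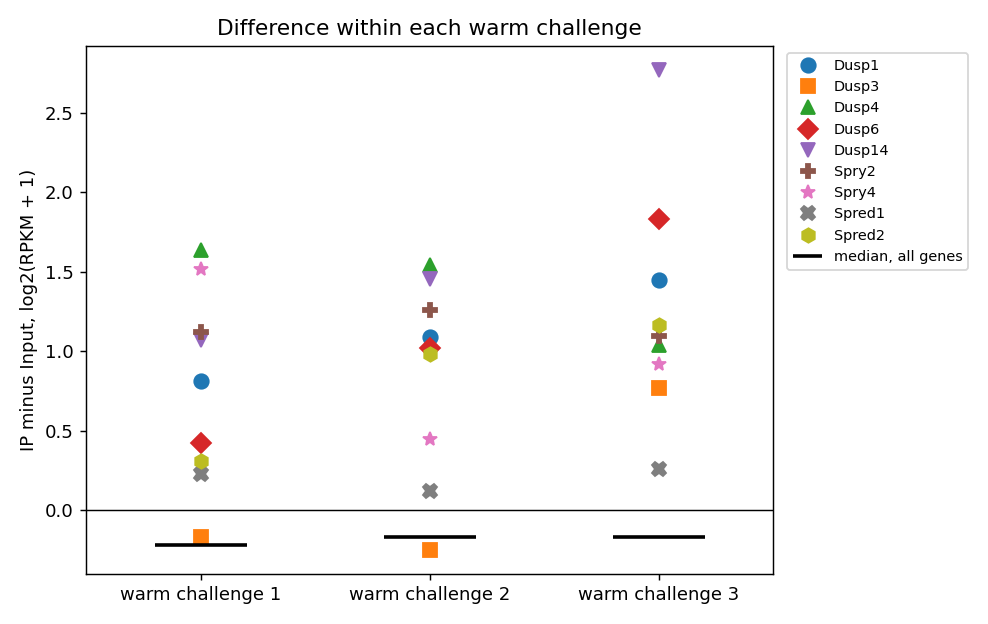
Difference of IP minus Input on the log2(RPKM + 1) scale within each numbered warm challenge (1 symbol per gene), with a black bar at the median of all genes tested in that challenge. In challenge 3 the values run from 0.26 for Spred1 to 2.77 for Dusp14, and all 9 lie above the bar.

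IP 3 was the highest IP library for 7 of the 9 genes, against 30.1% of all genes tested, and IP 1 for 2 (Dusp4 and Spry4), against 40% of all genes. Summed over the 9 genes, the level was 201, 215 and 356 RPKM in IP 1, 2 and 3, against 125, 121 and 140 RPKM in Input 1, 2 and 3. Markers of neurons, of which 9 of 10 were listed (not Rbfox3), had summed levels of 3616, 5910 and 7248 RPKM in IP 1, 2 and 3, against 4161 to 5597 RPKM in the Input libraries. That order was set by Snap25, a protein of the synaptic release machinery, which alone had 2063, 3948 and 5392 RPKM in IP 1, 2 and 3. The other 8 markers summed to 1552, 1962 and 1856 RPKM in IP 1, 2 and 3, against 1371 to 1621 RPKM in the Input libraries, with IP 2 highest. Of the 9, 0 passed by limma and 2 were higher at an unadjusted p under 0.05, against 5.03% of all genes. Their part in the differences of the feedback genes was not tested.

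Levels per length can be set side by side between genes. In IP the order of mean RPKM was Dusp14 (56.2), Spred2 (54.2), Dusp1 (31.5), Dusp3 (29.5), Spred1 (27.0), Spry2 (21.4), Spry4 (15.6), Dusp4 (11.1) and Dusp6 (10.7), and every neighbouring pair overlapped in range. In Input it was Spred2 (28.5), Dusp3 (25.5), Spred1 (23.3), Dusp14 (14.2), Dusp1 (13.8), Spry2 (9.10), Spry4 (6.76), Dusp6 (4.04) and Dusp4 (3.59). There the ranges parted between Spred1 and Dusp14 and between Spry4 and Dusp6, and overlapped for the other neighbours. Dusp14, the fourth gene in Input, was thus first in IP, though its range there overlapped that of Spred2.

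Leaving out any 1 library other than IP 1 ended 3 or all 4 of the calls in the set. The genes higher in IP were 6 of the 9 without IP 1, 0 without IP 2 and 1 without IP 3, and 0, 0 and 1 without Input 1, 2 and 3, against 3.62%, 0.131%, 0.237%, 0.108%, 0.0331% and 0.0498% of all genes in the same omissions. The library IP 1 stood apart from the others, with a highest Spearman correlation to any other library of 0.927, against 0.955 to 0.98 for the rest. Without it Dusp6 (log2 fold 1.46, adjusted p = 0.0169 by limma) and Spred2 (1.16, adjusted p = 0.0287) passed beside the 4 genes already called. Dusp4 was called in 3 of the 6 omissions, namely those of IP 1, IP 3 and Input 3, and Dusp1, Dusp14 and Spry2 in that of IP 1. Over the 6 omissions the adjusted p reached 0.188 for Dusp1, 0.102 for Dusp4, 0.145 for Dusp14 and 0.168 for Spry2. Without both libraries of challenge 1, 2 or 3, in fits added after the data were seen, 1 member (Dusp14), 0 and 0 passed, against 0.789%, 0.00842% and 0.0168% of all genes. The 4 calls held, with no further member called, under every other setting of the fit. The share of all genes called higher was then 1.33% with the challenge as a block, 0.819% with a pseudocount of 0.1 and 0.819% with one of 5, 0.721% without a filter, 1.1% with a filter of 5 RPKM, 1.02% after median scaling, 1.05% after quantile normalization, 0.803% without the trend and 1.52% with block and median scaling together.

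**Figure D4:**
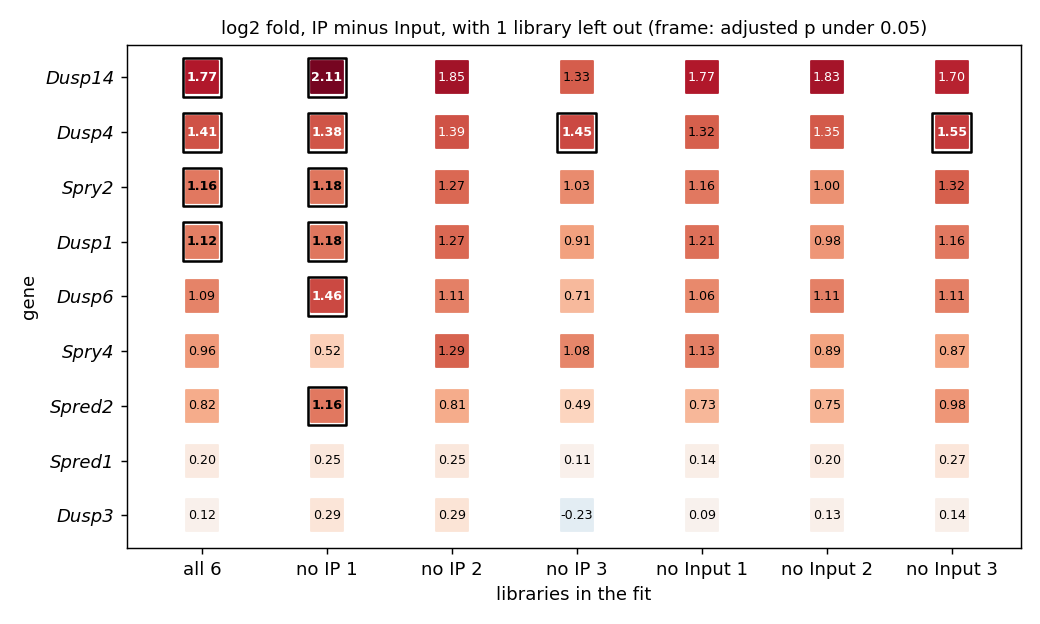
Log2 fold of IP minus Input for each of the 9 genes (rows) with all 6 libraries or with 1 left out (columns), where colour repeats the printed value and a black frame marks an adjusted p under 0.05 by limma. Frames are most frequent without IP 1 (6 genes), and the value of Dusp3 is negative without IP 3 (-0.23).

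Of 5 other MAP kinase phosphatases listed, 4 were tested (Dusp7, Dusp8, Dusp10 and Dusp16). Their median log2 fold was -0.18, against -0.18 over all genes. By limma 0 of the 4 passed, near the shares of all genes, which were 0.892% higher and 3.29% lower. At an unadjusted p under 0.05 there were also 0, against 5.03% of all genes higher. Dusp7, a cytoplasmic phosphatase of ERK, stood at 9.25, 11.4 and 18.4 RPKM in IP 1, 2 and 3, against 11.8, 15.8 and 18.0 RPKM in Input 1, 2 and 3 (log2 fold -0.24, adjusted p = 0.646 by limma). Dusp16, a phosphatase of JNK, came to -0.19 on the log2 scale (adjusted p = 0.705). In both the groups overlapped. Dusp2, with 0.147 to 0.876 RPKM in IP and 0.236 to 0.560 RPKM in Input, was too low to be tested.

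Among 10 further atypical members of the family, 1 fell in IP and 0 rose, against 3.29% of all genes lower and 0.892% higher. The median log2 fold of the 10 was -0.58. The one lower was Styx, a relative without catalytic activity, at 1.38, 0.605 and 0.833 RPKM in IP 1, 2 and 3, against 3.20, 3.20 and 3.65 RPKM in Input 1, 2 and 3 (log2 fold -1.18, adjusted p = 0.0308 by limma, and 0.0671 after quantile normalization). At an unadjusted p under 0.05 by limma, 4 of these 10 were lower and 0 higher, against 5.03% of all genes higher. The share of all genes lower at that level was not counted, so the 4 cannot be set against it. All 3 IP libraries lay below all 3 Input libraries for 4 of the 10, against 23.5% of all genes. Of the other Sprouty and Spred genes, 2 were tested and 0 passed, near the same shares of all genes called. The log2 fold was positive in 1 of the 2, against 34.8% of all genes. Spred3 reached 0.39 on the log2 scale (adjusted p = 0.360) and Spry1 -0.29 (adjusted p = 0.480), and neither had an unadjusted p under 0.05 by limma.

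Of 5 other feedback inhibitors and MAP kinase tyrosine phosphatases tested, 1 was higher and 0 lower, against 0.892% and 3.29% of all genes. Ier3, an early response gene that ERK induces, stood at 14.7, 13.0 and 12.2 RPKM in IP 1, 2 and 3, against 7.85, 3.85 and 3.15 RPKM in Input 1, 2 and 3 (log2 fold 1.34, adjusted p = 0.0426 by limma). Its groups did not overlap. Ptpn5, the striatal-enriched phosphatase of ERK and p38, stood at 54.5, 59.3 and 130 RPKM in IP 1, 2 and 3, against 38.3, 27.4 and 44.5 RPKM in Input 1, 2 and 3. It did not pass (log2 fold 1.04, adjusted p = 0.114), although its groups did not overlap either, and it was chosen for mention after its values were seen.

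Genes upstream of ERK were read in 2 lists, beside 0.892% of all genes higher and 3.29% lower. Among 26 receptor tyrosine kinases and adaptors, 1 was higher and 0 were lower (median log2 fold -0.11). The one higher was Shc3, a neuronal adaptor between receptors and Ras, at 18.8, 15.9 and 20.5 RPKM in IP 1, 2 and 3, against 6.60, 5.06 and 8.76 RPKM in Input 1, 2 and 3 (log2 fold 1.33, adjusted p = 0.0266 by limma). Among 19 entries for Ras proteins and their regulators, 1 was higher and 2 lower (median -0.19). The Ras relative Rras2 stood at 7.43, 21.4 and 21.8 RPKM in IP 1, 2 and 3, against 4.55, 5.30 and 3.66 RPKM in Input 1, 2 and 3 (log2 fold 1.58, adjusted p = 0.0492). Its call ended under 5 of the 8 other settings of the fit, with an adjusted p of up to 0.0584. The exchange factor Rasgrp3 (log2 fold -1.38, adjusted p = 0.0345 by limma) and the Ras relative Rras (-1.07, adjusted p = 0.0361) were lower, with an adjusted p of up to 0.0612 and 0.0894 under the other settings.

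Of the core kinases and scaffolds of the ERK cascade, 0 of 14 passed by limma (median log2 fold 0.07). At an unadjusted p under 0.05, 0 were higher, against 5.03% of all genes, and 4 were lower. The share of all genes lower at that level was not counted, so the 4 cannot be set against it. All 3 IP libraries lay below all 3 Input libraries for 4 of the 14, against 23.5% of all genes. Pea15a, which anchors ERK in the cytoplasm, stood at -0.71 on the log2 scale (adjusted p = 0.136) and Mapk3, which encodes ERK1, -0.57 (adjusted p = 0.167). Of 25 genes of the JNK and p38 cascade, likewise 0 passed (median -0.16), with 1 higher and 3 lower at an unadjusted p under 0.05. All 3 IP libraries lay below all 3 Input libraries for 5 of the 25, against the same 23.5% of all genes. Map3k7 had -0.87 (adjusted p = 0.0975) and Mapk8, which encodes JNK1, -0.66 (adjusted p = 0.0992). Of 16 kinases and transcription factors downstream of ERK, 0 were higher and 1 lower. Elk1, a transcription factor that ERK phosphorylates, stood at 5.54, 4.28 and 5.94 RPKM in IP 1, 2 and 3, against 13.5, 12.3 and 12.8 RPKM in Input 1, 2 and 3 (log2 fold -1.16, adjusted p = 0.0274 by limma). Rps6ka3, which encodes the ERK-activated kinase RSK2, reached 0.97 on the same scale (adjusted p = 0.157 by limma, but 0.0439 in the fit blocked by challenge), and was likewise chosen after its values were seen. Over all these lists together, 3 of 121 entries were higher and 4 lower, against 0.892% and 3.29% of all genes tested. Leaving out IP 1 gave 6 higher and 14 lower, leaving out Input 1 gave 1 higher (Ier3) and 0 lower, and leaving out IP 2, IP 3, Input 2 or Input 3 gave 0 in either direction.

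**Figure D5:**
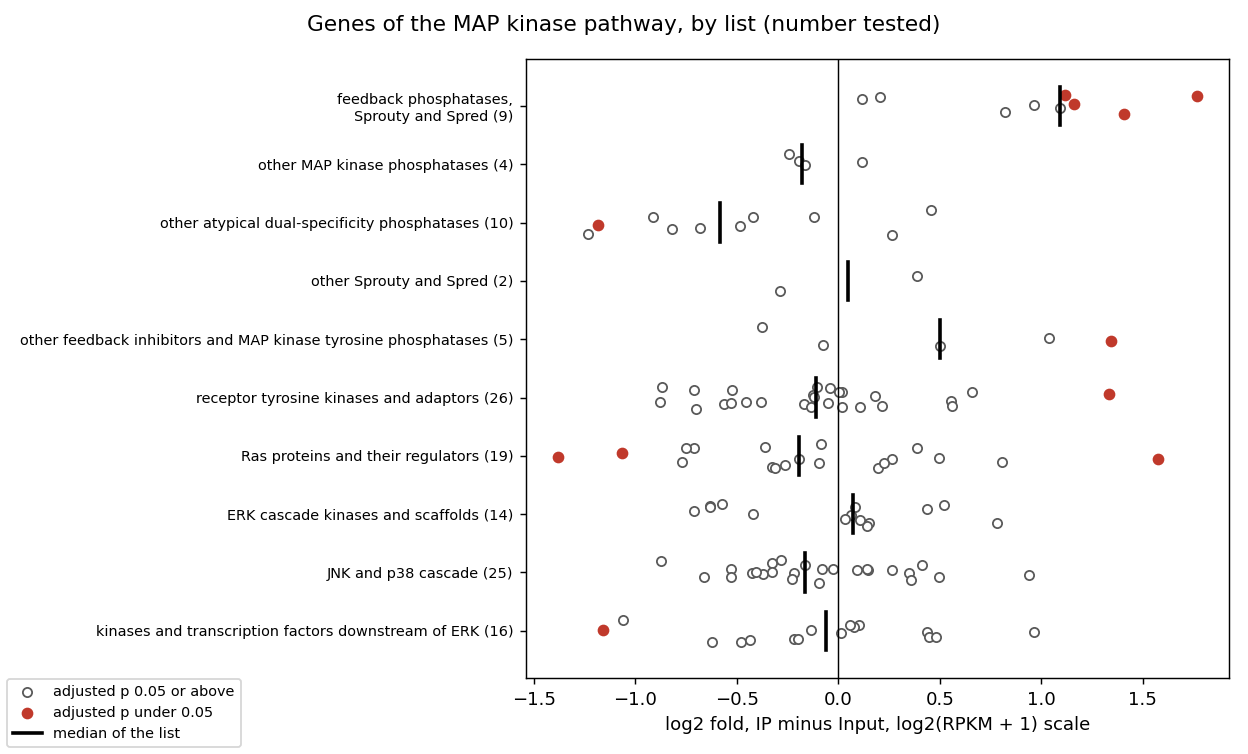
Log2 fold of IP minus Input (horizontal axis, log2(RPKM + 1) scale) for each gene tested (points) in the 9 feedback genes and in 9 further lists of the MAP kinase pathway, filled where the adjusted p was under 0.05, with a bar at the median of each list. The bar lies at 1.09 for the feedback genes and between -0.58 and 0.50 for the other lists.

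For the 3 genes with the largest folds, the genes with the most similar profile were sought by the root mean square difference of centred log2(RPKM + 1) values over the 6 libraries. Nearest to Dusp14 were Zdhhc14 (difference 0.22), which encodes a palmitoyltransferase, and Egr2 (0.26), an activity-induced transcription factor. Egr2 had 1.64, 1.91 and 7.29 RPKM in IP 1, 2 and 3, against 0.604, 0.418 and 0.515 RPKM in Input 1, 2 and 3, so it passed the filter through its IP libraries alone. It was not called (log2 fold 1.4, adjusted p = 0.0746 by limma), and its log2 fold was 0.58 with a pseudocount of 5 and 2.28 with one of 0.1. Nearest to Dusp4 were Gprasp1 (0.13), a sorting protein of G-protein-coupled receptors, and Bhlhb9 (0.14). Nearest to Spry2 were Shc3 (0.10) and the protocadherin gene Pcdh17 (0.13). The contrast of IP with Input is itself part of this measure, so a like fold alone makes genes close.

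Marker lists of the cells that the dissected tissue could hold were read in the same table. Oligodendrocyte markers (9 of 9 listed) were lower for 7 of 9, against 3.29% of all genes. Their summed levels were 371 to 552 RPKM in IP and 1082 to 1207 RPKM in Input. Mag (log2 fold -0.47, adjusted p = 0.201 by limma) and Cnp (0.04, adjusted p = 0.966) did not pass, and Cnp alone was positive. Astrocyte markers (8 of 8 listed) summed to 288 to 310 RPKM in IP and 298 to 411 RPKM in Input. Of the 8, 0 passed by limma and 2 were lower at an unadjusted p under 0.05, a level at which the share of all genes lower was not counted. In the fit blocked by challenge, Aqp4, the astrocyte water channel, passed as lower (adjusted p = 0.0400, against 0.0616 without the block). The log2 fold was positive for 2 of the 8 astrocyte markers, Aldh1l1 (0.30) and S100b (0.07), and neither passed. Microglial markers (7 of 8 listed, without Tmem119) summed to 4.48 to 8.24 RPKM in IP and 7.33 to 15.6 RPKM in Input. The sum of 15.6 RPKM was that of Input 1, beside 7.33 and 8.03 RPKM in Input 2 and 3. Only 2 of these markers were tested, and 0 passed by limma. Of 6 endothelial markers only Pecam1 was listed, at 0.280 to 0.626 RPKM in IP and 0.408 to 0.607 RPKM in Input. Erythroid markers (4 of 5 listed, without Hbb-b2) were higher for 3 of 3 tested, against 0.892% of all genes. Their sums were 202 to 567 RPKM in IP and 14.1 to 50.3 RPKM in Input. Markers of preoptic and hypothalamic neurons (5 of 6 listed, without Rax) summed to 114 to 166 RPKM in IP and 91.1 to 108 RPKM in Input. Of 3 tested, 0 passed by limma and 2 were higher at an unadjusted p under 0.05, against 5.03% of all genes. Those 2 were Zic1 and Six3, while the mean RPKM of Nkx2-1 (12.5 in IP, 16.5 in Input), Hmx3 (0.570 in IP, 1.13 in Input) and Six6 (0.424 in IP, 0.75 in Input) was lower in IP. The part of these other cells in the differences of the feedback genes was not tested.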

How the data were processed

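The deposited table holds linear RPKM values made by the authors, 1 column per library (6 in all), per the file headers. Per the submitters' processing notes, reads were handled on mm9. Which aligner, counting tool and gene annotation made the values is not given in the sources used here. RPKM holds no read counts and low values showed no clear single-read steps (93 genes under 0.3 RPKM in Input 1 and Input 2, at most 7 per bin of 0.05 log2), so the depth is unknown and no interval for counting error was made. Summed RPKM was 374708 to 496125 per library.

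Tests ran on log2(RPKM + 1) of the 12328 entries with at least 1 RPKM in 3 or more libraries. IP was compared with Input by limma 3.58.1 in R 4.3.3 (mean-variance trend, two-sided, no block, all 6 libraries), with Benjamini-Hochberg adjustment over all entries and a threshold of 0.05. The script was tested on simulated data. Python 3.11.15, pandas 2.3.3 and matplotlib 3.10.9 served for tables and plots. The members and gene lists were chosen with earlier results of these data known. Genes were named by a rule, namely every member and, per list, those past the threshold or otherwise the 2 with the smallest p, at most 4 a list, and the 2 genes most like each of the 3 members with the largest fold. Outside it, Ptpn5, Rps6ka3, Dusp2 and the markers named singly were chosen after their values were seen. The 12 symbols that stand on 2 entries, Rasgrf2 among them, were kept apart.

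The labels number each IP and Input library by warm challenge, and equal numbers were taken as pairs on that ground. Their deviations from the group means correlated across genes by 0.05, 0.61 and 0.27 for challenges 1, 2 and 3, and by -0.52 to 0.18 for libraries of unequal number, where IP 1 with Input 3 (0.18) and IP 2 with Input 1 (0.16) lay above the pair of challenge 1. The labels do not say whether the challenges used separate animals, so p-values measure the spread between these libraries. Alternatives changed the block, pseudocount, filter, scaling, trend and libraries. Promoters came from RefSeq (GRCm38.p6) by symbol, with 8 of 10 members matched, and overlaps of genes from the RefSeq gene table, with 10 of 10 matched.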

Additional observations from a re-analysis of the deposited data

How the results depend on the processing

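The 4 calls held under the replicate block, both pseudocounts, both filters, both scalings and the fit without a trend. Their adjusted p there was 0.0103 to 0.0498 by limma. The positive direction of all 9 feedback genes held under the same settings, where those not called had an adjusted p of 0.0681 to 0.855. The block changed no call among the members, while Rps6ka3 and the marker Aqp4 passed with it. The members' median log2 fold was 0.75 with a pseudocount of 5 and 1.27 after median scaling, with or without the block. The median of all genes was -0.18, and -0.01 after quantile normalization. All genes called lower were 406, and 125 after median scaling, 124 after quantile normalization and 144 with block and median scaling together, against 110, 126, 129 and 187 called higher. The split of calls thus depended on the scaling. Other pathway genes called lower were 4, and 2 with a filter of 5 RPKM or median scaling and 1 after quantile normalization or with block and median scaling.

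Leaving out single libraries gave 4 to 443 genes higher and 17 to 1250 lower over all genes, 0 to 6 members higher, a members' median of 0.91 to 1.27, and 0 to 6 pathway genes higher and 0 to 14 lower. Leaving out both libraries of a challenge, and the block with median scaling, were added after seeing the data. Without challenge 1, 1 member (Dusp14) was called, with 93 genes higher and 115 lower over all genes and 2 pathway genes higher and 0 lower. Without challenge 2, 0 members and 0 pathway genes were called, with 1 gene higher and 0 lower over all genes. Without challenge 3, likewise 0 and 0, with 2 genes higher and 1 lower. These fits leave 4 libraries. The sign turned for Dusp3 without IP 3 (-0.23, with 0.29 the highest over the omissions of 1 library) and without challenge 3 (-0.21), and for Dusp16, at -0.19 with all libraries, after quantile normalization (0.038), over the omissions of 1 library (-0.36 to 0.083, the highest without IP 3) and without challenge 3 (0.12). The absolute depth is unknown, so its share in the spread of low genes cannot be given.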
